A study of Homo sapiens with 13 samples.

Results

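Heat shock chaperones of the HSP70, HSP90 and HSP60 systems were described here as 10 genes chosen by name for being known as HSF1-driven chaperones of the cytosol and mitochondria: HSPA1A, HSPA1B, HSPA8, HSPH1, DNAJB1, HSP90AA1, HSP90AB1, HSPB1, HSPD1 and HSPE1. All 10 were found among the 60591 genes of the count table, and all 10 were among the 19514 genes that passed the filter on low counts. The cells were TE11, which the labels give as esophageal squamous cell carcinoma, treated for 48 h before RNA was taken. A first group received 10 µM chloroquine together with 25 µM 5-fluorouracil (5-FU), called the combination (n = 3), and the others received 25 µM 5-FU alone (n = 3), 10 µM chloroquine alone (n = 3) or 0.1% DMSO as vehicle (n = 4). Chloroquine is a weak base that raises lysosomal pH and stalls autophagy, while 5-FU, an analogue of uracil, blocks thymidylate synthesis and is built into RNA and DNA. The study asked how chloroquine bears on the response of these cells to 5-FU.

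Heat shock proteins bind unfolded or unstable proteins and help them fold, assemble or reach degradation. HSP70 proteins cycle on and off their clients with the help of J proteins and nucleotide exchange factors, and hand many clients on to HSP90, while the HSP60 and HSP10 chaperonin folds proteins inside mitochondria. The transcription factor HSF1 drives many of these genes through heat shock elements, repeats of GAA that point in alternate directions, and tumour cells often keep this programme active without heat.

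The promoters of these genes are printed first so that the letters HSF1 is known to read can be seen directly. RefSeq windows of build GRCh38.p14, from 250 bases before each start to 50 bases after it, were searched for the paired element GAANNTTC or TTCNNGAA, which reads the same on both strands. A paired element was found for 8 of the 10 genes, against 16.2% of 27305 genes and 13.5% of 35116 windows. Since the genes were chosen as HSF1 targets, such a share follows from the choice and is given as a description only. The tripled element, GAANNTTCNNGAA or TTCNNGAANNTTC searched on both strands, was found for 4 of the 10, HSPA8, HSP90AA1, HSP90AB1 and HSPD1, against 0.608% of genes, and each tripled element holds overlapping paired ones. HSPH1 and HSPE1 had no match in this window, and the start of HSPE1 lies 105 and 539 bases from the 2 RefSeq starts of HSPD1 on the opposite strand. The stretch of HSPD1 printed below belongs to the farther start and ends 289 bases from the start of HSPE1. A match is a description of letters and not a measured binding site. The stretches below run 5′ to 3′ along each gene's own strand, with 15 bases on each side where the window allows. Capitals mark the matches, and the start with the most matches before it is shown where RefSeq lists several.
HSPA1A, chr6:31815422-31815459, plus strand: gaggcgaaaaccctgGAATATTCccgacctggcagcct
HSPA1B, chr6:31827618-31827655, plus strand: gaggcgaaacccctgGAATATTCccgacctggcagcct
HSPA8, chr11:123062164-123062381, minus strand: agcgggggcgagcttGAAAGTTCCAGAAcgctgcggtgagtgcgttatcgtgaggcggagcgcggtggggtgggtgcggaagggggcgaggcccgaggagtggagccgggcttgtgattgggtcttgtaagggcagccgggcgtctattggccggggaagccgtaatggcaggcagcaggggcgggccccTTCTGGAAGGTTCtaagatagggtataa
DNAJB1, chr19:14518422-14518489, minus strand: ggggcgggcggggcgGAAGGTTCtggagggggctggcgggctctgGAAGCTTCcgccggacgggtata
HSP90AA1, chr14:102087090-102087147, minus strand: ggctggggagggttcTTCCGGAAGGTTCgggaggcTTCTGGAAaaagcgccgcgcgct
HSP90AB1, chr6:44247763-44247858, plus strand: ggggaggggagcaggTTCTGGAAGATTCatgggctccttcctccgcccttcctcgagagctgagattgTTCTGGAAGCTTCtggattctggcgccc
HSPB1, chr7:76302476-76302513, plus strand: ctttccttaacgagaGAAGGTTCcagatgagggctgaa
HSPD1, chr2:197500053-197500090, minus strand: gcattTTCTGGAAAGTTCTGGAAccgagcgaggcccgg
The stretches of HSPA1A and HSPA1B were nearly the same, and those of HSP90AA1, HSP90AB1, HSPA8 and HSPD1 held 3 or 4 paired elements each.

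Total counts ran from 17834539 to 23679833 per library. Vehicle 4, chloroquine 1 and 2, 5-FU 2 and combination 2 stood apart by their fibroblast collagen transcript COL1A2. They had 153 to 741 counts of it where the remaining 8 libraries had 1 to 7. Some blood and muscle transcripts also had higher maxima in the 5 than in the 8. Among them were HBB (203 and 2 counts), LYZ (108 and 2), CD74 (211 and 15), PTPRC (31 and 1) and MYH2 (42 and 2). Within the 5, however, HBB went down to 0 counts and LYZ and MYH2 to 1. Other such markers parted little or not at all: HBA1 reached 37 and 35, HBA2 51 and 42, CKM 19 and 11, and CD68 3 and 4. Whether these 5 libraries held RNA from other cells or tissues was not tested, and the results were also fitted without them. The summed level of 6 fibroblast markers was 13.5 to 30.3 CPM (counts scaled by TMM to a common library size) in the combination, 25.6 to 41.7 in 5-FU, 12.7 to 95.1 in chloroquine and 11.4 to 129.7 in vehicle. Most markers of the labelled squamous origin were absent or nearly so: of 12 squamous and basal genes, 10 never exceeded 10 counts in those 8, and KRT5, KRT6A, KRT4, PKP1, SPRR1B and IVL had 0 throughout. The summed level of the 4 simple epithelium markers did not overlap between groups with and without 5-FU, at 79.6 to 82.1 CPM in the combination, 68.2 to 83.2 in 5-FU, 49.4 to 52.8 in chloroquine and 51.1 to 52.7 in vehicle. That of the squamous markers was 169.1 to 184.1, 164.2 to 169.4, 202.6 to 227.4 and 165.4 to 188.6 in the same order, and the part of either in the results was not tested. The desmosomal gene DSP (2995 to 4184 counts) and the simple keratin KRT18 (747 to 1361 counts) were present in those libraries. The labels do not state whether replicates came from separate cultures. The p-values therefore reflect only how these libraries vary, which may be technical. In bulk RNA, fewer cells with a transcript and less transcript per cell cannot be told apart.

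Each of the treatments lowered most of the 10 chaperone mRNAs relative to vehicle, and the stress-inducible HSP70 pair fell the most. In the combination 8 of 10 fell, HSPB1 rose and DNAJB1 did not pass the test, where 27.2% of all genes tested fell and 28.1% rose (55.4% in either direction). With 5-FU alone 9 fell and HSPB1 rose, where 29.5% of all genes fell and 30.8% rose (60.3%). With chloroquine alone all 10 fell, where 19.1% of all genes fell and 20.3% rose (39.4%). The median log2 fold change of the 10 was -0.74 in the combination, -1.07 in 5-FU and -0.65 in chloroquine, while the median of all genes tested was 0.0057, 0.010 and 0.023. These 3 comparisons share the vehicle libraries, and HSPA1A and HSPA1B share reads, so neither the comparisons nor the 10 counts are independent. The 10 genes were also chosen with earlier results of these data known. The shares of all genes here and below are therefore set beside them as a description only. All calls are at a Benjamini-Hochberg adjusted p under 0.05 in edgeR's quasi-likelihood test over all genes. The 10 genes together took 0.734 to 0.750% of all counts in the combination, 0.695 to 0.761% in 5-FU, 0.695 to 0.754% in chloroquine and 1.04 to 1.09% in vehicle, with no overlap between any treated group and vehicle.

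In the 8 libraries with few COL1A2 counts, 9 of 10 were called in the combination, 9 in 5-FU and 10 in chloroquine, where 52.4%, 58.9% and 22.3% of all genes were called. Chloroquine had 1 library there, which was assumed to vary like the others. In the other 5 libraries the combination, 5-FU and vehicle had 1 library each, and the spread came from chloroquine 1 and 2 alone, the closest replicate pair of all (chi-square per degree of freedom 1.60). Calls in the 5 are therefore not used or counted among the alternatives, and only their values are given: 8 of the 10 lay below vehicle in the combination, 9 in 5-FU and 10 in chloroquine, with medians of -0.65, -0.93 and -0.72. Scaling by library size alone moved the median of all genes by 0.15 in the combination, 0.19 in 5-FU and 0.095 in chloroquine on the log2 scale. It called 2 of the 10 higher and 7 lower in the combination, 1 higher and 7 lower in 5-FU and 9 lower in chloroquine. Over all genes the split with that scaling was 7422 higher and 3659 lower in the combination, 8291 and 3669 in 5-FU, and 5435 and 2410 in chloroquine, against 5489 and 5312, 6003 and 5756, and 3952 and 3730 with the main scaling.

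**Figure D1:**
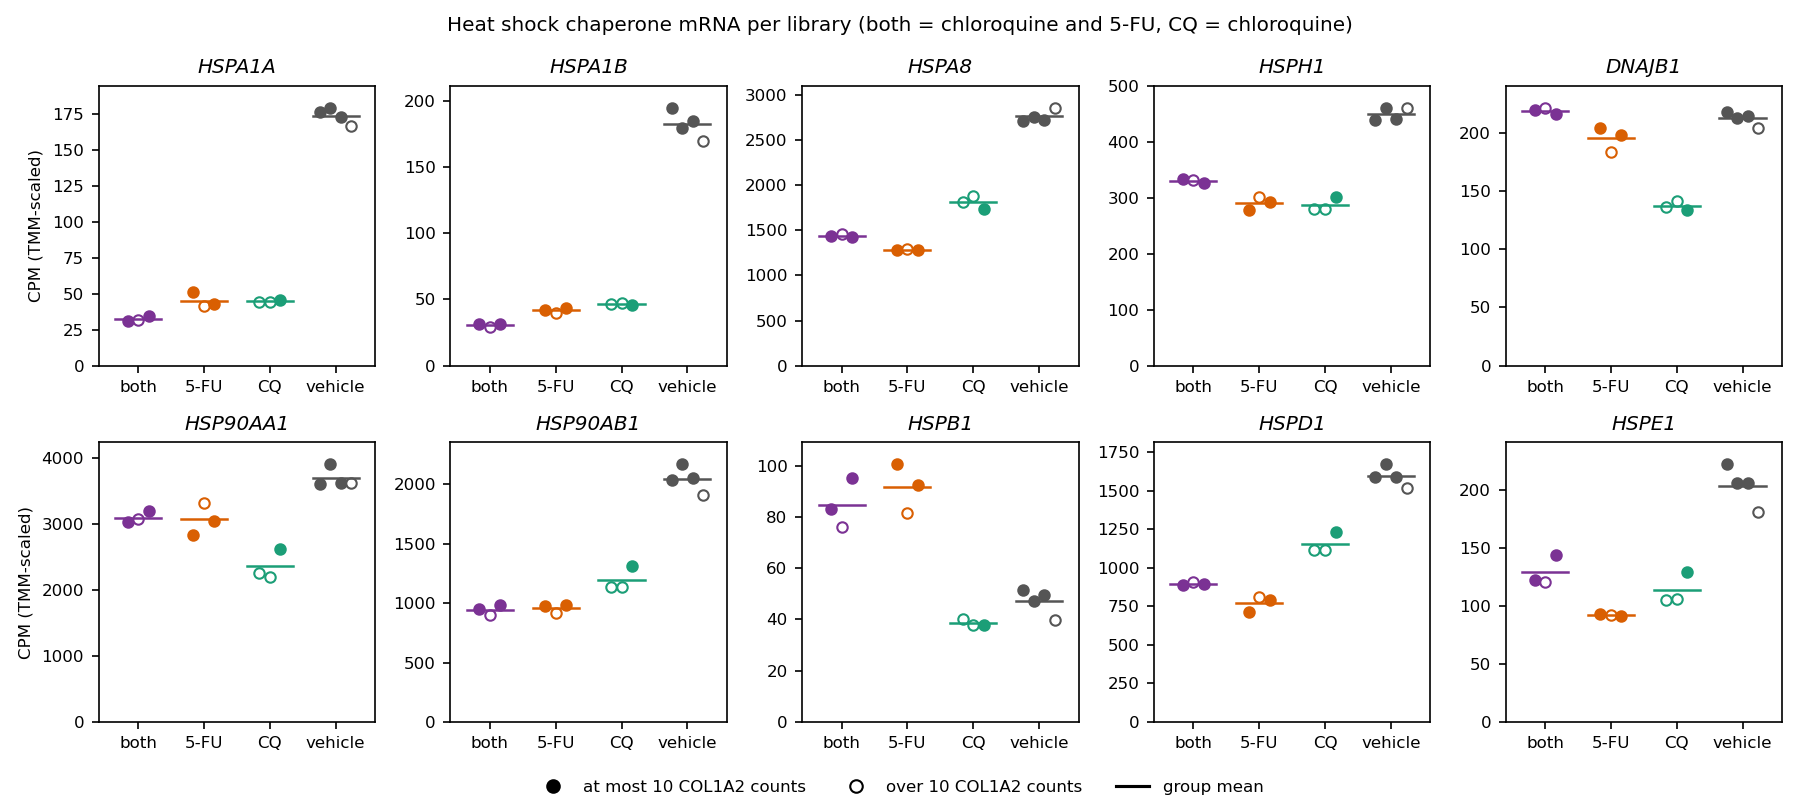
Level of the 10 chaperone mRNAs in each of the 13 libraries as TMM-scaled CPM on linear axes from 0, with the combination (both), 5-FU, chloroquine (CQ) and vehicle from left to right. Points are libraries, open points have over 10 COL1A2 counts and lines are group means; the vehicle points lie above all treated points except for DNAJB1 and HSPB1.

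HSPA1A and HSPA1B encode the stress-inducible cytosolic HSP70, and their transcripts are near copies: 72.6% of the 50-base words of HSPA1A also occur in HSPA1B. Their counts therefore cannot be split with certainty, and HSPA1A held 47.5 to 54.7% of the pair in every library. HSPA1A stood at 31.3, 31.7 and 34.5 CPM in the combination, 51.0, 41.8 and 42.7 in 5-FU, 44.7, 44.3 and 45.5 in chloroquine, and 176.4, 179.8, 173.2 and 166.8 in vehicle. HSPA1B stood at 31.2, 29.5 and 31.6 CPM in the combination, 42.2, 39.9 and 43.2 in 5-FU, 46.8, 47.0 and 46.0 in chloroquine, and 195.0, 179.3, 185.1 and 169.8 in vehicle. For both genes every treated library lay below every vehicle library, and every combination library lay below every library of either single drug.

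HSPA1A fell by 2.42 ± 0.0704 (SE) on the log2 scale in the combination, to 18.7% of its vehicle level. The log2 fold change was -1.95 ± 0.0683 in 5-FU and -1.96 ± 0.0686 in chloroquine, and these single-drug levels did not differ past the test (5-FU over chloroquine: 0.011, 95% interval -0.14 to 0.17, edgeR adjusted p = 0.913). HSPA1B showed log2 fold changes of -2.57, -2.13 and -1.97 in the combination, 5-FU and chloroquine. Adding chloroquine to 5-FU lowered HSPA1A further, by a log2 fold change of -0.47 ± 0.0732, and HSPA1B by one of -0.44 ± 0.0617 (adjusted p = 0.000172 and 7.95e-05), and both calls held in every alternative tried. The call of HSPA1B below chloroquine in 5-FU (-0.16, adjusted p = 0.0394) was lost in 18 of 21 alternatives (adjusted p up to 0.411), among them the omission of any 1 library other than vehicle 1 or vehicle 4.

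HSPA8, the constitutive cytosolic HSP70, fell less than the inducible pair. It stood at 1437, 1457 and 1421 CPM in the combination, 1276, 1291 and 1277 in 5-FU, 1813, 1880 and 1735 in chloroquine, and 2708, 2753, 2726 and 2860 in vehicle. The 4 groups did not overlap, and 5-FU was lowest, followed by the combination, chloroquine and vehicle. The log2 fold changes against vehicle were -0.94 ± 0.0328 in the combination, -1.11 ± 0.0330 in 5-FU and -0.61 ± 0.0325 in chloroquine (edgeR adjusted p between 1.08e-11 and 1.93e-08). The step of 0.17 between the combination and 5-FU (adjusted p = 0.00155) was lost when the replicate number was fitted as a block in these 2 groups alone (0.15, adjusted p = 0.0941) and with no filter on low counts (adjusted p = 0.111). HSPA8 counts per count of the inducible pair were 21.5 to 23.8 in the combination, 13.7 to 15.8 in 5-FU, 19.0 to 20.6 in chloroquine and 7.29 to 8.50 in vehicle.

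HSPH1 (HSP110) is a nucleotide exchange factor that releases clients from HSP70, and none of its 50-base words occurs in another gene. It stood at 334.1, 332.4 and 326.5 CPM in the combination, 279.4, 301.9 and 292.8 in 5-FU, 279.5, 280.1 and 302.3 in chloroquine, and 439.7, 462.0, 441.1 and 461.6 in vehicle. Vehicle was highest, the combination came next, and 5-FU and chloroquine overlapped. Its log2 fold changes against vehicle were -0.45 ± 0.0436 in the combination, -0.63 ± 0.0439 in 5-FU and -0.65 ± 0.0439 in chloroquine. The combination was 0.18 above 5-FU (edgeR adjusted p = 0.00608) and 0.20 above chloroquine (adjusted p = 0.00204). The first of these was lost with the block in the 2 groups alone (0.17, adjusted p = 0.106) and with those groups fitted alone (0.17, adjusted p = 0.0510), and the second in the 8 libraries (0.13, adjusted p = 0.246).

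DNAJB1 (HSP40) is the J protein that delivers clients to HSP70 and starts its ATPase cycle, and it parted from HSPA1A and HSPA1B. It stood at 219.8, 221.7 and 215.7 CPM in the combination, 204.1, 183.4 and 198.1 in 5-FU, 136.1, 141.8 and 133.6 in chloroquine, and 217.7, 213.0, 214.2 and 204.4 in vehicle. Chloroquine alone was below all other libraries, while the combination and vehicle overlapped. The log2 fold change was -0.63 ± 0.0471 in chloroquine (edgeR adjusted p = 3.90e-07) and 0.045 in the combination (95% interval -0.05 to 0.14, adjusted p = 0.434), where it was called with library size alone (0.19). The small fall in 5-FU (-0.12 ± 0.0463, adjusted p = 0.0347) was lost without vehicle 1, 2 or 3 and without 5-FU 2 or 3 (adjusted p between 0.0612 and 0.153), and its sign turned with library size alone (0.071). The combination was 0.68 ± 0.0498 above chloroquine (adjusted p = 9.36e-08), a call that held in every alternative tried, and 0.17 above 5-FU (adjusted p = 0.0154), a call lost in 8 of 22 alternatives, among them the block in these 2 groups alone (0.15, adjusted p = 0.164), without 5-FU 2 (0.12, adjusted p = 0.0641) and without combination 1 or 2 (adjusted p = 0.0532 and 0.0622).

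The 2 cytosolic HSP90 genes fell unequally. HSP90AA1, the inducible isoform, stood at 3022, 3075 and 3186 CPM in the combination, 2836, 3321 and 3037 in 5-FU, 2247, 2197 and 2624 in chloroquine, and 3598, 3908, 3616 and 3623 in vehicle. HSP90AB1, the constitutive isoform, stood at 951.2, 903.2 and 985.4 CPM in the combination, 972.9, 920.1 and 985.8 in 5-FU, 1139, 1134 and 1316 in chloroquine, and 2039, 2174, 2057 and 1913 in vehicle. For each gene all treated libraries lay below all vehicle libraries and the combination overlapped with 5-FU, but chloroquine was the lowest group for HSP90AA1 and the highest treated group for HSP90AB1.

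HSP90AA1 had log2 fold changes of -0.25 ± 0.0610 in the combination, -0.27 ± 0.0610 in 5-FU and -0.65 ± 0.0616 in chloroquine, against -1.11 ± 0.0578, -1.09 ± 0.0577 and -0.77 ± 0.0571 for HSP90AB1. The first 2 calls of HSP90AA1 (edgeR adjusted p = 0.00273 and 0.00165) were lost with library size alone (-0.10 and -0.073, adjusted p = 0.162 and 0.317), while those of HSP90AB1 held in every alternative tried. HSP90AA1 counts per HSP90AB1 count were 3.18 to 3.40 in the combination, 2.92 to 3.61 in 5-FU, 1.94 to 1.99 in chloroquine and 1.76 to 1.89 in vehicle, a ratio within each library that no scaling changes. In the 8 libraries 5-FU was no longer called above chloroquine for HSP90AA1 (0.16, adjusted p = 0.0973, against 0.38 in all 13). Combination over 5-FU for HSP90AA1 was 0.014 (95% interval -0.13 to 0.15, adjusted p = 0.903).

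HSPB1 (HSP27), a small heat shock protein that holds unfolded clients without ATP, went the other way in both groups that received 5-FU. It stood at 83.0, 76.0 and 95.3 CPM in the combination, 100.8, 81.5 and 92.4 in 5-FU, 40.1, 38.0 and 38.0 in chloroquine, and 51.6, 47.3, 49.7 and 39.7 in vehicle. All 6 libraries with 5-FU lay above the other 7, and chloroquine overlapped with vehicle. The log2 fold change against vehicle was 0.85 ± 0.0961 in the combination and 0.96 ± 0.0959 in 5-FU (edgeR adjusted p = 3.80e-06 and 8.66e-07), and the combination was not called against 5-FU (-0.11, 95% interval -0.33 to 0.10). The fall in chloroquine (-0.28 ± 0.101, adjusted p = 0.0392) was lost in 7 of 21 alternatives: without any one of vehicle 1, 2 or 3 or chloroquine 1, 2 or 3 (-0.31 to -0.23, adjusted p between 0.0672 and 0.109) and with library size alone. It was -0.025 in the 5 libraries. HSPB1 counts per count of the inducible HSP70 pair were 1.24 to 1.44 in the combination, 0.998 to 1.08 in 5-FU, 0.416 to 0.439 in chloroquine and 0.118 to 0.139 in vehicle.

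HSPD1 (HSP60) and HSPE1 (HSP10) form the mitochondrial chaperonin and its lid and are transcribed from neighbouring starts. HSPD1 stood at 889.7, 907.5 and 894.4 CPM in the combination, 711.2, 809.0 and 789.2 in 5-FU, 1118, 1113 and 1232 in chloroquine, and 1591, 1675, 1587 and 1517 in vehicle. HSPE1 stood at 122.4, 121.2 and 144.6 CPM in the combination, 93.3, 92.2 and 91.3 in 5-FU, 105.6, 106.1 and 129.9 in chloroquine, and 223.1, 206.5, 206.2 and 181.0 in vehicle. Both genes were lowest in 5-FU and highest in vehicle, but between those the combination was below chloroquine for HSPD1 and overlapped with chloroquine for HSPE1.

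HSPD1 had log2 fold changes of -0.83 ± 0.0508 in the combination, -1.05 ± 0.0512 in 5-FU and -0.46 ± 0.0503 in chloroquine, and HSPE1 of -0.66 ± 0.0868, -1.15 ± 0.0887 and -0.84 ± 0.0877. Both were higher in the combination than in 5-FU, HSPD1 by 0.22 ± 0.0534 and HSPE1 by 0.49 ± 0.0929 (edgeR adjusted p = 0.00468 and 0.000875), and these calls held in every alternative tried, the block in the 2 groups alone included. HSPE1 was not called in the combination against chloroquine (0.19, 95% interval -0.01 to 0.38), but it was without chloroquine 3 (0.30, adjusted p = 0.0150) and with library size alone (0.24). Its lower level in 5-FU than in chloroquine (-0.30, adjusted p = 0.0129) was lost without chloroquine 3 (-0.19, adjusted p = 0.0998). HSPD1 counts per HSPE1 count were 6.18 to 7.49 in the combination, 7.63 to 8.78 in 5-FU, 9.48 to 10.6 in chloroquine and 7.13 to 8.38 in vehicle. Counts of both genes can be shared with near copies: 24.8% of the 50-base words of HSPD1 and 27.2% of those of HSPE1 occur in other genes, the readthrough gene HSPE1-MOB4 among them.

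**Figure D2:**
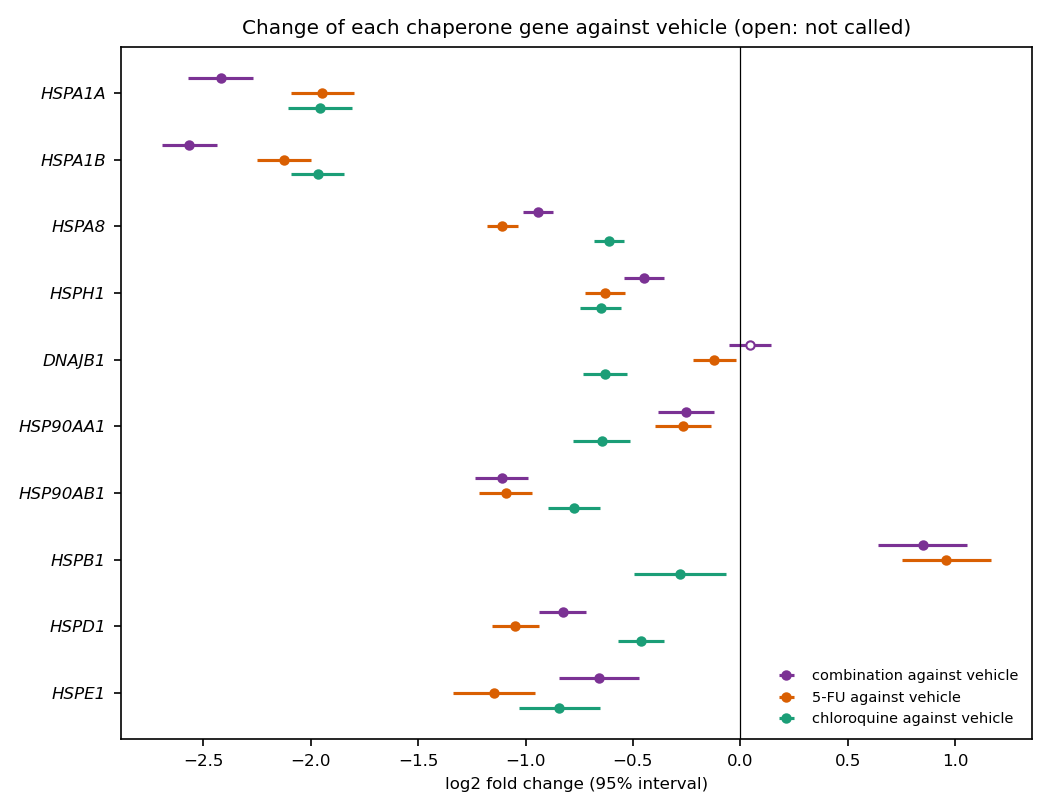
Log2 fold change of each of the 10 chaperone genes against vehicle with its 95% interval, for the combination, 5-FU and chloroquine from top to bottom within each gene (n = 3 libraries each, vehicle n = 4). Filled points passed the test; HSPA1A and HSPA1B lie between -2.57 and -1.95, HSPB1 lies right of 0 in the combination and 5-FU, and DNAJB1 is open in the combination.

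For most of these genes the drug effects did not add on the log2 scale. For 9 of the 10 genes the combination lay above the sum of the single-drug changes and the interaction passed the test, where 20.6% of all genes tested had a positive interaction and 19.3% a negative one (39.9% in either direction). HSPA1A would have been at -3.90 against vehicle by the sum and was measured at -2.42, an interaction of 1.48 ± 0.0990 (edgeR adjusted p = 1.44e-07). HSPE1 had a sum of -1.99 and a measured change of -0.66, and DNAJB1 a sum of -0.75 and a measured change of 0.045. The interaction ran from 0.66 ± 0.0892 for HSP90AA1 to 1.53 ± 0.0831 for HSPA1B among the 9. HSPB1 had a sum of 0.68, a measured change of 0.85 and an interaction that did not pass (0.17, 95% interval -0.14 to 0.47, adjusted p = 0.377). The 9 calls held in every alternative tried, scaling included, and the median interaction was 0.79 over the 10 genes and -0.0021 over all genes. Library size alone turned the split over all genes to 2379 positive and 5063 negative, against 4019 and 3772.

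**Figure D3:**
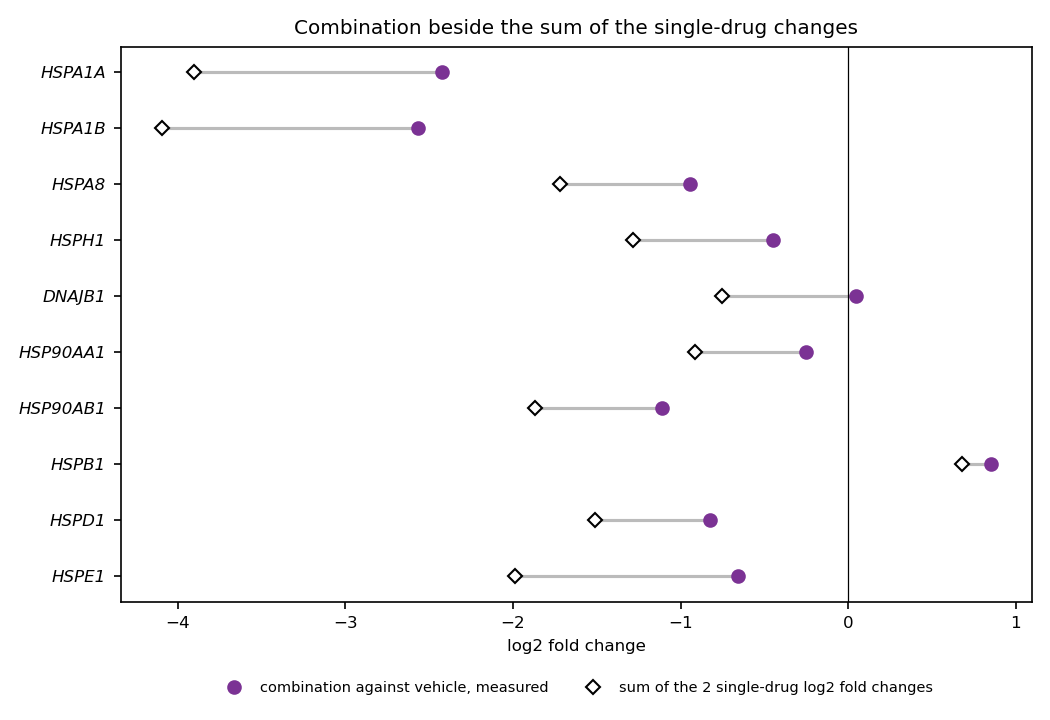
Measured log2 fold change of the combination against vehicle (filled circles) beside the sum of the log2 fold changes of 5-FU and chloroquine alone (open diamonds) for the 10 genes. The circle lies right of the diamond for each gene, by 0.17 for HSPB1 and by 0.66 to 1.53 for the other 9.

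Set directly against each single drug, the combination had no common direction. Against 5-FU it was higher for HSPE1, HSPD1, HSPH1, HSPA8 and DNAJB1 and lower for HSPA1A and HSPA1B, so 5 of 10 rose and 2 fell, where 20.2% of all genes rose and 18.3% fell. With the block in the 2 groups alone, 2 rose (HSPE1 and HSPD1) and 2 fell (HSPA1A and HSPA1B), and the share of all genes in that fit is not given here. Against chloroquine HSPB1, DNAJB1, HSP90AA1 and HSPH1 rose and HSPA1B, HSPA1A, HSPD1, HSP90AB1 and HSPA8 fell, where 24.8% of all genes rose and 25.7% fell. Between the single drugs, 5-FU was higher than chloroquine for HSPB1 (1.24), DNAJB1 (0.51) and HSP90AA1 (0.38) and lower for HSPD1 (-0.58), HSPA8 (-0.50), HSP90AB1 (-0.32), HSPE1 (-0.30) and HSPA1B (-0.16), where 27.1% of all genes were higher and 27.6% lower. With library size alone 3 of the 10 were higher and 3 lower there, and 6449 and 4341 of all genes, against 5296 and 5388. Counts of 7, 9 and 8 called genes compare with 38.5%, 50.6% and 54.8% of all genes called in either direction.

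Levels between genes depend on the length taken, so they were set per kilobase (kb) of all exon bases and of the longest coding transcript, both from GENCODE release 29. HSP90AA1, HSP90AB1, HSPA8 and HSPD1 held ranks 1 to 4 of the 10 in every group with either length, but not in 1 order: in vehicle HSP90AA1 was highest per kb of exon (702 CPM per kb, against 569.6 for HSPA8) and HSPA8 per kb of transcript (1121, against 1050.0). HSPA1A and HSPA1B held ranks 9 and 10 in each treated group with either length, at 12.2 to 18.5 CPM per kb, against ranks 6 and 7 in vehicle by exon length and 8 and 9 by transcript length, at 72.3 for HSPA1B and 70.1 for HSPA1A. HSPB1 was at rank 5 in 5-FU and last in vehicle with either length, at 56.0 ± 5.92 CPM per kb of exon in 5-FU and 28.8 ± 3.21 in vehicle (SD). Next below it in 5-FU, and within its spread, were DNAJB1 at 53.2 ± 2.90 per kb of exon and HSPE1 at 97.1 ± 1.03 per kb of transcript, where HSPB1 was at 100.7 ± 10.6.

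Of 63 other genes of the heat shock system listed by role, also with earlier results of these data known, 59 were tested. In the combination 12 rose and 24 fell, in 5-FU 10 rose and 27 fell, and in chloroquine 6 rose and 31 fell. Of the 59 that is 36, 37 and 37 called, where 55.4%, 60.3% and 39.4% of all genes were called, so the list was near all genes in the groups with 5-FU. With library size alone these splits became 22 and 18 in the combination, 23 and 19 in 5-FU, and 11 and 22 in chloroquine, so the balance of the list in the groups with 5-FU depends on the scaling. The medians were -0.11, -0.18 and -0.17 on the log2 scale, against -0.74, -1.07 and -0.65 for the 10 chaperones. The interaction was called above 0 for 25 and below for 6 (20.6% and 19.3% of all genes), or 21 and 9 with library size alone. In the combination against 5-FU 18 rose and 8 fell (20.2% and 18.3% of all genes), or 12 and 10 with library size alone. Against chloroquine 22 rose and 10 fell (24.8% and 25.7%), or 26 and 9, and in 5-FU against chloroquine 19 rose and 15 fell (27.1% and 27.6%), or 24 and 11.

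Of 16 HSP90 relatives and cochaperones tested, 11 fell in the combination, 12 in 5-FU and 12 in chloroquine and none rose, whereas with library size alone 2 rose and 10 fell in the combination, 1 rose and 9 fell in 5-FU, and none rose and 11 fell in chloroquine. Over all genes 27.2%, 29.5% and 19.1% fell with the main scaling, and 3659, 3669 and 2410 of 19514 genes with library size alone. The interaction was called above 0 for 10 of the 16, against 20.6% of all genes. With library size alone it was above 0 for 9 and below for 1, where 2379 of all genes were above and 5063 below. STIP1, which bridges HSP70 and HSP90, changed by -0.45, -0.31 and -0.72 in the combination, 5-FU and chloroquine, and CHORDC1, an HSP90 partner, by -0.65, -0.65 and -1.03. CACYBP, listed with this role, changed by -0.55, -0.81 and -0.80, and FKBP4, an immunophilin of steroid receptor complexes, by -0.74 in 5-FU. The mitochondrial HSP90 TRAP1 changed by -0.82, -0.68 and -0.46, whereas HSP90B1 of the endoplasmic reticulum changed by -0.53 and -0.70 in the groups with 5-FU and was at 0.052 in chloroquine, which did not pass. All values given for the 3 comparisons passed edgeR's test unless stated.

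Of 10 exchange factors none rose and 6, 7 and 7 fell in the combination, 5-FU and chloroquine, where 27.2%, 29.5% and 19.1% of all genes fell. With library size alone 3, 2 and 1 rose and 4, 3 and 6 fell. Of all 19514 genes 7422, 8291 and 5435 rose and 3659, 3669 and 2410 fell with that scaling. BAG1 changed by -1.02, -1.01 and -0.21, the last of these lost without vehicle 2, chloroquine 1 or chloroquine 2 (-0.17, -0.16 and -0.20), in the 8 libraries and with library size alone, and BAG3, which couples HSP70 to HSPB8 and autophagy, by -0.35, -0.52 and -0.47. HSPA9, the mitochondrial HSP70, changed by -0.38, -0.47 and -0.56, and HSPA5 (BiP), its counterpart in the endoplasmic reticulum, by -0.49, -0.37 and -0.15, the last lost in the 8 libraries, with no filter and with library size alone. HYOU1, a BiP exchange factor, changed by -0.81 in the combination. Of 10 J proteins, 5 rose and 1 fell in the combination, 3 rose and 2 fell in 5-FU, and none rose and 5 fell in chloroquine. With library size alone 7 rose and none fell in the combination, 8 rose and 1 fell in 5-FU, and 2 rose and 3 fell in chloroquine. The 6, 5 and 5 called of 10 compare with 55.4%, 60.3% and 39.4% of all genes.

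DNAJB2, a J protein with ubiquitin-binding motifs, stood at 61.5, 58.4 and 67.8 CPM in the combination, 66.2, 56.7 and 62.6 in 5-FU, 27.6, 28.6 and 32.1 in chloroquine, and 28.4, 30.4, 26.7 and 25.3 in vehicle. It rose by 1.18 ± 0.0791 in the combination and 1.16 ± 0.0791 in 5-FU, and the 6 libraries with 5-FU lay above the other 7, as they did for HSPB1. DNAJA1, a common partner of HSPA8, changed by 0.18 in the combination and -0.35 in chloroquine and was at 0.0069 in 5-FU, which did not pass but did with library size alone (0.20), and the rise in the combination was lost without combination 3 (0.16, adjusted p = 0.0566). DNAJA4 was higher in the combination than in 5-FU (0.88) and chloroquine (0.79), DNAJB4 was 0.79 above chloroquine in the combination and 0.59 in 5-FU, and DNAJB6, known for holding back aggregation, was 0.34 above 5-FU in the combination.

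HSF1, the factor that drives the heat shock genes, was at 106.8, 98.5 and 123.5 CPM in the combination, 157.5, 110.4 and 122.6 in 5-FU, 104.7, 109.4 and 102.1 in chloroquine, and 101.8, 100.4, 102.6 and 100.7 in vehicle. Its mRNA rose by 0.36 in 5-FU and did not pass in the combination (0.11) or chloroquine (0.056). HSF4, a related factor, rose in 5-FU (0.68) and chloroquine (0.70) and was lower in the combination than in 5-FU (-0.98). SERPINH1 (HSP47), the collagen chaperone and an HSF1 target, was 0.76 higher in 5-FU than in chloroquine.

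**Figure D4:**
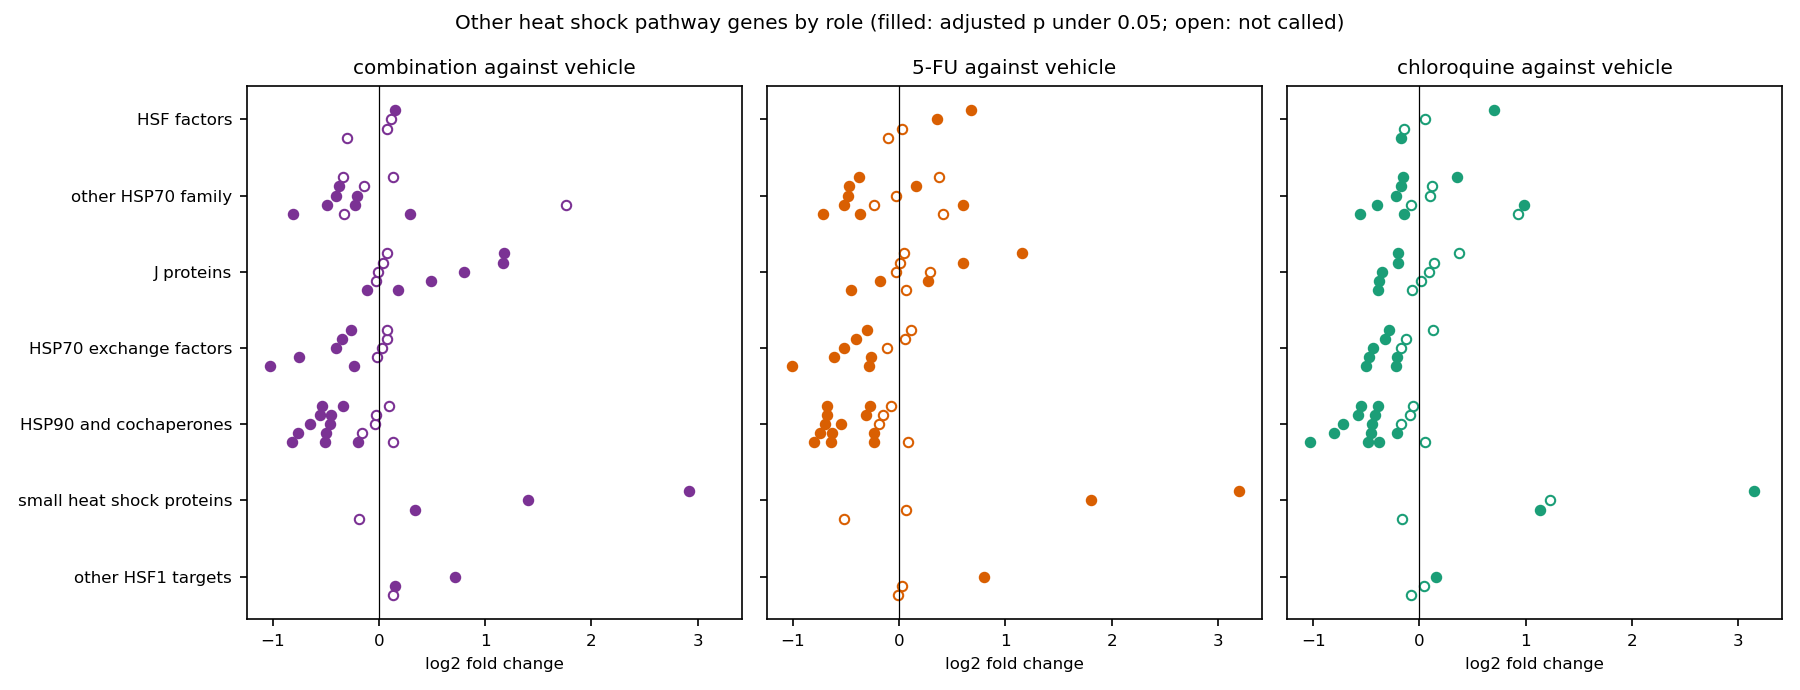
Log2 fold change against vehicle of the 59 tested genes of the wider heat shock list by role, with the combination left, 5-FU in the middle and chloroquine right (n = 3 libraries each, vehicle n = 4). Filled points passed the test at an adjusted p under 0.05; no HSP90 cochaperone or HSP70 exchange factor that passed lies right of 0, although with library size as the only scaling 2 and 3 of them did in the combination.

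Of the 8 genes listed under small heat shock proteins beside HSPB1, 4 were tested: HSPB6, HSPB8, CRYAB and HSPB11, which was listed by its name. Of these, 3 rose in the combination (HSPB11 among them), 2 in 5-FU and 2 in chloroquine, with none falling. Over all genes 28.1%, 30.8% and 20.3% rose, and with library size alone 3, 3 and 2 of the 4 rose. With 4 genes such counts are a description only. HSPB8, which works with BAG3 in the removal of misfolded proteins, had 32, 25 and 20 counts in the combination, 27, 28 and 39 in 5-FU, 29, 29 and 24 in chloroquine, and 3, 2, 3 and 3 in vehicle. Each treated group lay above vehicle, and the ratio to vehicle in scaled counts was 7.85 in the combination (95% counting interval 4.15 to 16.4), 9.58 in 5-FU (5.12 to 19.9) and 9.16 in chloroquine (4.86 to 19.1). HSPB8 passed the filter on low counts only through its treated libraries, so its rise is a description only. Its interaction was -3.43, so the rise in the combination was smaller than the sum of the single-drug rises. The sign is opposite to that of the 9 chaperones, which fell with each single drug where HSPB8 rose. For those 9 the change in the combination was also smaller in size than the sum. HSPB6 rose by 1.40 in the combination, 1.81 in 5-FU and 1.14 in chloroquine, the last lost without chloroquine 1 or 3 (1.07 and 0.87, adjusted p = 0.0510 and 0.0784).

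HSPA6, the HSP70 gene that is nearly silent without stress, was singled out after its values were seen. It is printed because its counts divide by kind of library, and its promoter holds a tripled element as well as a paired one, with capitals as above in the same build.
HSPA6, chr1:161524345-161524493, plus strand: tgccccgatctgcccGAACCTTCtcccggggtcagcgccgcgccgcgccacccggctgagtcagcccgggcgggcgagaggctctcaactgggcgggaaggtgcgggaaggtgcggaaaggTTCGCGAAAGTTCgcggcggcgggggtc
HSPA6 had 67, 214 and 71 counts in the combination, 11, 109 and 17 in 5-FU, 84, 90 and 14 in chloroquine, and 11, 7, 6 and 94 in vehicle. The high counts outside the combination all fell in libraries with COL1A2, and over all 13 libraries no change against vehicle passed (combination 1.76, edgeR adjusted p = 0.110). In the 8 other libraries HSPA6 was higher in the combination than in 5-FU (2.31, adjusted p = 5.70e-06), chloroquine (1.94, adjusted p = 0.000488) and vehicle (2.82, adjusted p = 1.55e-07), and neither single drug was called against vehicle there. In the 5 the same differences of the combination were 0.94, 1.29 and 0.99.

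**Figure D5:**
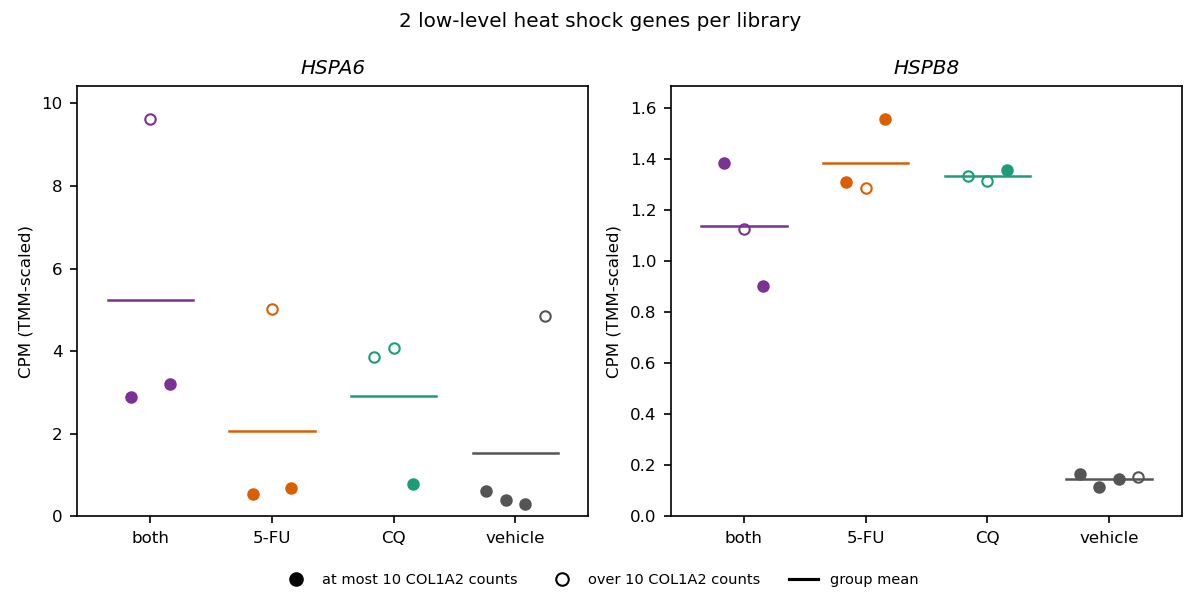
TMM-scaled CPM of HSPA6 (left) and HSPB8 (right) in each of the 13 libraries on linear axes from 0, with the combination (both), 5-FU, chloroquine (CQ) and vehicle from left to right and lines at group means. Open points have over 10 COL1A2 counts: they are the highest HSPA6 points in every group, while HSPB8 is above vehicle in every treated library of either kind.

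Genes like the 10 in pattern were searched among 8928 genes whose log2 CPM averaged 4 or more. The 10 themselves, the 63 genes of the wider list and genes with clone, antisense or similar noncoding names were left out. How closely other heat shock genes followed is therefore not given. Over the 13 libraries the mean log2 level of the 10 genes was followed most closely in that search by APEX1 (Pearson r = 0.989), IMMT (0.985), CCT6A (0.985), PDHB (0.983), ODC1 (0.982), CCT5 (0.981), HOXD13 (0.981) and TTC5 (0.979). APEX1 encodes an apurinic endonuclease, and CCT6A and CCT5 subunits of the cytosolic chaperonin. CCT6A changed by -0.76, -0.78 and -0.77 in the combination, 5-FU and chloroquine, and CCT5 by -0.50, -0.49 and -0.63. Among the 10 themselves the correlation with their mean was 0.973 for HSPA1A, 0.448 for DNAJB1 and -0.392 for HSPB1. Each gene is part of that mean, and HSPA1A and HSPA1B, which share reads and changed most, weigh most in it. These values are therefore partly built in. In the same search the genes closest to HSPB1 were MDK (0.988), RNF25 (0.987), DMTN (0.986), SCNM1 (0.985) and TMEM11 (0.984), and MDK, a growth factor, changed by 1.39, 1.58 and -0.30. These correlations are descriptions: the libraries fall into 4 groups with shared treatment, and the genes were ranked on the same values.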

How the data were processed

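Total RNA of 13 libraries was sequenced with a directional kit, per the labels' protocols. The authors deposited raw read counts per gene with human symbols. No aligner, annotation or use of strand is stated there, and per the submitters' processing notes the tool was DESeq (version not listed) and the genome build was GRCm38, which is of the mouse, so gene coordinates of the counts are not printed. The members and gene lists were chosen with earlier results of these data known.

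Genes were filtered with filterByExpr, leaving 19514 genes that held 99.8% or more of every library's total. After TMM scaling, group means over all 13 libraries were estimated in a single quasi-likelihood fit (edgeR 4.0.16, R 4.3.3), with Benjamini-Hochberg adjustment over the genes tested. Levels are in CPM after that scaling. The interaction is the log2 change of the combination minus the sum of the single-drug changes. Tested on simulated counts for chloroquine against vehicle (19514 genes), the model called 76% of genes changed by a log2 of 1 and 88% of those changed by 2. It also called 9 unchanged genes. Only 100 genes were changed at each size there, whereas 39.4% of all genes were called in the data, so these shares need not hold for the data. The counting interval of HSPB8 is exact and covers counting error only. Replicates of a group differed by more than counting noise (chi-square per degree of freedom 1.60 or more), so none was counted as a duplicate. The largest values were those of 5-FU 1 with 5-FU 2 (21.3) and with 5-FU 3 (10.8).

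From the wider list, genes were named by role (HSF1, HSPA5, HSPA9, HSP90B1, TRAP1, BAG3, DNAJA1, STIP1, HSPB8) or as the 3 called genes with the largest rise and the 3 with the largest fall in each comparison. The text gives those that describe the roles. The values of 1 gene of the list are not reported here, although it is counted. Same-numbered libraries deviated together (residual correlation above 0.1 in every pair) between the combination and 5-FU only (0.341, 0.743 and 0.339). Between all groups, however, the correlation was positive for libraries of the same kind by COL1A2 (0.457 for chloroquine 2 and 5-FU 2). It was negative for those of different kind (-0.448 for chloroquine 1 and 5-FU 1). Same-numbered libraries of the combination and 5-FU are of the same kind. These correlations therefore cannot show whether the numbers pair those groups, and the block is given as an alternative only. Alternatives were RLE size factors, the Wald test of DESeq2 1.42.0, library size only, no filter, only the groups compared, a replicate block, HSPA1A and HSPA1B summed, each kind of library alone, and each library left out. The block in the combination and 5-FU alone and the levels per kb of transcript were chosen after seeing the data. Promoters came from RefSeq, build GRCh38.p14, and 50-base words from transcripts of GENCODE release 29. The Pearson correlations used log2 CPM with a prior count of 2.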

Additional observations from a re-analysis of the deposited data

Results flagged for a closer look

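The interaction of the drugs differed from 0 for 9 of the 10 chaperones, so each drug changed these genes differently with and without the other: 1.48 for HSPA1A, 1.53 for HSPA1B, 1.33 for HSPE1, 0.83 for HSPH1, 0.80 for DNAJB1, 0.78 for HSPA8, 0.75 for HSP90AB1, 0.68 for HSPD1 and 0.66 for HSP90AA1 on the log2 scale. Among the other genes named, the interaction was 1.06 for CACYBP, 1.03 for CHORDC1 and 0.83 for SUGT1, an HSP90 cochaperone, and it was -3.43 for HSPB8, -1.69 for HSPA12B and -1.68 for HSF4.

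In vehicle, 1 of the 4 libraries stood far from the rest for HSP90AA1 (vehicle 2 high, gap over range 0.920) and for HSPA6 (vehicle 4 high, 0.931). Chance flags about 1 in 20 such groups.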

How the results depend on the processing

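Of the 10 chaperones, the falls of HSPA1A, HSPA1B, HSPA8, HSPH1, HSP90AB1, HSPD1 and HSPE1 in all 3 treatments, the rises of HSPB1 with 5-FU and the 9 interactions kept their direction in every alternative and, leaving aside the 5 libraries, whose calls rest on 1 replicate pair, their call. Leaving out each library gave 9 to 9 called in the combination, 9 to 10 in 5-FU, 9 to 10 in chloroquine, 6 to 7 in the combination against 5-FU, 9 to 10 in the combination against chloroquine, 6 to 8 in 5-FU against chloroquine and 9 to 9 for the interaction. The replicate block over all groups called 9, 10 and 10 in the 3 treatments and 7 in the combination against 5-FU. Fitted in those 2 groups alone, the block called 4 (2 higher, 2 lower) in place of 7, and 15 of the wider list (10 higher, 5 lower) in place of 26, and the unblocked fit of those groups alone called 14 (8 higher, 6 lower), with fewer libraries to estimate the spread. No filter and only the groups compared each called 5 there. The share of all genes called in the fits of this paragraph is not given here. Fewer calls in them are therefore not read as a loss particular to these genes.

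Signs turned as follows; the cause was not tested. With library size only, in 5-FU against vehicle, DNAJB1 was at 0.071, HSPA14 at 0.16, DNAJA2 at 0.013 and DNAJC7 at 0.16, and DNAJB6 was at 0.039 in the combination against vehicle. CRYAB, with 0 to 2 counts in vehicle 1 to 3 and 29 in vehicle 4, was at -0.52 in 5-FU and -0.19 in the combination against vehicle, but at 2.83 and 3.11 with the replicate block, 2.80 and 2.82 in the 8 libraries, -2.40 and -1.58 in the 5, and 2.79 and 3.12 without vehicle 4 (without the other libraries in turn the lowest were -0.94 and -0.61, without vehicle 3). In the 5 libraries HSP90AA1 was at -0.11 in the combination against 5-FU, HSF1 at -0.11 in the combination against chloroquine, and HSPBP1 and CACYBP at -0.18 and 0.16 in 5-FU against chloroquine, while HSPB11 there was at -0.012 in the 8 libraries.

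Depth limits HSPB8, HSPB6, CRYAB and HSPA6, which hold few counts. How another counting would divide reads of HSPA1A and HSPA1B, or of genes and their pseudogenes, was not tested.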

Other observations

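Processed pseudogenes of the chaperones also took counts. Summed over the pseudogenes named after it, HSPD1 had counts equal to 29.1 to 33.8% of its own, HSPE1 10.8 to 23.3%, HSP90AB1 8.59 to 10.5%, HSP90AA1 5.98 to 7.21% and HSPA8 0.972 to 2.23%. The pseudogenes with the most counts changed much like the gene each is named after. HSP90AB3P was at -1.10 in the combination, -1.05 in 5-FU and -0.73 in chloroquine, and HSP90AB1 at -1.11, -1.09 and -0.77. HSP90AA2P was at -0.25, -0.23 and -0.67, and HSP90AA1 at -0.25, -0.27 and -0.65. HSPD1P1 was at -0.82, -1.08 and -0.49, and HSPD1 at -0.83, -1.05 and -0.46. Whether these counts are transcripts of the pseudogenes or reads of the genes was not tested. HSP90AB3P shares 15.6% of the 50-base words of HSP90AB1, HSP90AA2P 12.6% of those of HSP90AA1, and HSPD1P1 16.8% of those of HSPD1.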
